A study of Mus musculus with 8 samples.

Results

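Desmosomes are the spot-like junctions that hold epithelial and heart muscle cells together, and the 10 mouse genes described here encode their main parts: Dsp, Jup, Pkp1, Pkp2, Pkp3, Pkp4, Dsg2, Dsc2, Dsc3 and Perp. They were taken by gene symbol from a table of 23224 genes, and all 10 were found in it. The study sequenced polyadenylated RNA from lines grown out of mouse lung adenocarcinoma, in 8 libraries, 2 for each of 4 groups, and the series title asks how Foxa2, Cdx2 and Nkx2-1 together restrain metastasis. The labels give every group, controls included, loss of Trp53 (Trp53-/-) and the same serum-supplemented DMEM medium.

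The first 3 groups are lines of non-metastatic primary tumour (Tnonmet), infected with viruses that carry short hairpin RNAs. In shControl the hairpin targets luciferase, in shNkx2-1 it targets Nkx2-1, and in the triple knockdown hairpins target Nkx2-1, Foxa2 and Cdx2. All 3 are transcription factors: Nkx2-1 marks lung lineage, Foxa2 is a forkhead protein of endoderm-derived organs, and Cdx2 is known for specifying intestine. The fourth group, Tmet, was derived from metastatic primary tumour and has no named hairpin, so tumour of origin, virus and hairpin cannot be told apart in any comparison with Tmet. The labels do not say whether the 2 libraries of a group were separate cultures or how many lines each group holds. The p-values therefore measure the spread between these libraries, which may be technical.

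A desmosome is built in layers. Desmogleins and desmocollins, which are cadherins, cross the membrane and bind those of the neighbouring cell. Inside the cell their tails hold plakoglobin (Jup) and the plakophilins, both armadillo-repeat proteins, and these hold desmoplakin (Dsp), a plakin that ties the junction to keratin filaments. Perp is a small membrane protein of desmosomes in stratified epithelium and a known target of p53. Desmosomes are a mark of differentiated epithelium, and loss of their parts often goes with a mesenchymal shape.

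The promoters of the 2 plaque genes are shown because the knocked-down genes encode DNA-binding factors. They are the 250 bases before the RefSeq start on GRCm38.p6, 5′ to 3′ on the gene's own strand. Dsp lies at chr13:38151044-38151293 on the plus strand and Jup at chr11:100397791-100398040 on the minus strand. Capitals mark a match to one of 5 short motifs.
Dsp: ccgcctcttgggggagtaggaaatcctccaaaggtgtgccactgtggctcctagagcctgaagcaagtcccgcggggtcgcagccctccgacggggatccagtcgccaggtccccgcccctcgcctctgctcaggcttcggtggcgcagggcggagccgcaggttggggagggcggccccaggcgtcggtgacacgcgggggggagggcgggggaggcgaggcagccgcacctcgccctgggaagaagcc
Jup: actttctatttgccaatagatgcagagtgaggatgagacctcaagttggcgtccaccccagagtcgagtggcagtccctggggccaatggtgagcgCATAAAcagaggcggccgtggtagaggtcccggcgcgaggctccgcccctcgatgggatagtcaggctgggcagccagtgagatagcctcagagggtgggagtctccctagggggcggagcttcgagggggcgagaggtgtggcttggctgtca

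Both promoters are rich in G and C, with a GC content of 72.4% for Dsp and 62% for Jup, against a median of 52.4% over 32851 RefSeq promoters. The motifs were searched on both strands of that window. The Cdx core TTTATG, which reads as CATAAA on the other strand, occurs in 10.8% of the 32851 promoters, the Nkx2-1 core CAAGTG in 11.6% and the forkhead core TGTTTAC in 3.17%. The E-box CAGGTG read by Zeb and Snail factors occurs in 17.2% and the Grainyhead site AACCGGTT in 0.116%. The Jup promoter held 1 Cdx core, 154 bases before the start, and the Dsp promoter held none of the 5. A match is a description of the letters and not of binding. Promoters on 1 chromosome, that of the desmosomal cadherin genes, were left out of the match to the 10 genes. Among the rest, RefSeq entries matched 3 of them: Dsp, Jup and Pkp4, which has 2 promoters. One of the Pkp4 promoters held 1 E-box, 47 bases before its start.

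Libraries held 14496995 to 21044835 estimated counts, and levels are given in counts-per-million (CPM). A floor of 3 counts corresponds to 0.151 to 0.200 CPM. Nkx2-1 stood at 68.0 to 76.4 CPM under shControl, 37.7 to 44.8 under shNkx2-1, 34.0 to 38.1 under triple knockdown and 0.219 to 0.353 for Tmet. Cdx2 was lower in the triple knockdown, at 6.80 to 9.41 CPM against 98.6 to 111 in shControl, and higher in shNkx2-1, at 175 to 186. Foxa2 was 55.1 to 56.8 CPM in shControl and 28.2 to 34.1 in the triple knockdown. The 8 epithelial markers summed to 8073 to 8328 CPM under shControl, 6939 to 7487 under shNkx2-1, 10374 to 11328 under triple knockdown and 1438 to 2625 for Tmet. Krt8, Krt18 and Krt19 carried most of these sums, while Epcam and Cldn7 had low counts or none in every group. The 8 fibroblast markers summed to 5.33 to 5.47 CPM under shControl, 7.61 to 9.54 under shNkx2-1, 20.1 to 20.3 under triple knockdown and 264 to 820 for Tmet, with Lum at 0 in every library. The 8 alveolar type 2 markers summed to 206 to 334 CPM in the Tnonmet groups, mostly Abca3 and Nkx2-1, which is itself a hairpin target. In Tmet they summed to 59.0 to 85.0 CPM, mostly Abca3, at 84.4 and 58.3. Sftpa1, Sftpd and Lamp3 had no count in any library. Leukocyte and endothelial markers summed to at most 4.10 CPM. The 2 Tmet libraries differed from each other more than other duplicates did, with a mean chi-square per gene of 60.0 against 8.36 to 12.8.

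Of the 10 genes, 8 passed the filter on low counts and were tested among 13318 genes. Dsc2 and Dsc3 did not pass. Pkp3 passed through the triple knockdown and Tmet, Pkp1 through shNkx2-1, the triple knockdown and Tmet, and Dsg2 through shNkx2-1 and the triple knockdown, so counts over the tested genes describe them and support nothing. Tests were edgeR's quasi-likelihood tests in 1 fit over the 8 libraries, with p-values adjusted over all tested genes, and "rose" and "fell" are used for an adjusted p under 0.05. In bulk RNA, fewer cells of a type and less RNA per cell cannot be told apart.

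Dsp, the plakin that joins the plaque to keratin, stood at 249.8 and 269 CPM under shControl, 85.4 and 111 under shNkx2-1, 166 and 182 under triple knockdown, and 56.2 and 39.9 for Tmet. No group overlapped another, and the order ran from shControl through the triple knockdown and shNkx2-1 to Tmet. Of the neighbours in that order, shControl and the triple knockdown did not pass the test (adjusted p = 0.0535), while the triple knockdown and shNkx2-1 did (0.0163), as did shNkx2-1 and Tmet (0.00204). In the GENCODE annotation 499 of 9659 exon bases of Dsp lie opposite the antisense gene Gm10129. Without a stated strand setting, reads there cannot be told apart.

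Jup, plakoglobin, which also serves the adherens junction, stood at 267 and 275 CPM under shControl, 328 and 316 under shNkx2-1, 291 and 292 under triple knockdown, and 55.7 and 44.7 for Tmet. The 6 Tnonmet libraries lay within a narrow band and both Tmet libraries far below it. None of the 3 comparisons among Tnonmet groups passed the test for Jup.

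Among the plakophilins, which cluster the cadherin tails and recruit desmoplakin, Pkp1 is known from stratified epithelium. Its levels were 0.267 and 0.774 CPM under shControl, 2.13 and 1.63 under shNkx2-1, 21.2 and 33.0 under triple knockdown, and 99.8 and 64.1 for Tmet. The groups did not overlap and stood in that order, although the step from shControl to shNkx2-1, which rests on 19 and 64 counts, did not pass the test. Its span was the widest of the 8 tested genes, with a mean in Tmet 157 times that in shControl.

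Pkp3, another plakophilin of epithelia, was at 0.200 and 0.258 CPM in shControl and 0.182 and 0.282 in shNkx2-1, which is 3 to 5 counts a library and close to the floor. It stood at 5.49 and 4.55 CPM under triple knockdown and 4.87 and 2.57 for Tmet. The first pair of groups overlapped, as did the second, and the 2 pairs lay far apart.

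Pkp2, the plakophilin of simple epithelium and heart, stood at 76.4 and 73.0 CPM under shControl, 67.7 and 61.6 under shNkx2-1, 63.3 and 71.4 under triple knockdown, and 25.3 and 27.1 for Tmet. The Tnonmet groups lay close together, with the triple knockdown overlapping shNkx2-1, and Tmet lay below them all. Pkp4 (p0071), a relative that is also found at adherens junctions, varied least. It stood at 162 and 156 CPM under shControl, 164 and 145 under shNkx2-1, 191 and 200.2 under triple knockdown, and 114 and 140.2 for Tmet, a span of 1.54 times between the highest and lowest group means.

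The desmosomal cadherins had low counts in every library. Dsg2, the desmoglein of simple epithelia, gave 12 and 7 counts under shControl, 40 and 31 under shNkx2-1, 18 and 11 under triple knockdown, and 4 and 3 for Tmet, or 0.151 to 2.43 CPM. It was highest in both shNkx2-1 libraries and lowest in both Tmet libraries, while shControl and the triple knockdown overlapped. In GENCODE 330 of its 8268 exon bases lie opposite the antisense gene Gm16090, with the same limit on strand.

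Dsc2, the desmocollin that usually pairs with it, gave 3 and 4 counts under shControl, 11 and 8 under shNkx2-1, 3 and 0 under triple knockdown, and 2 and 1 for Tmet. The sum of 19 counts in shNkx2-1 was 2.73 times that in shControl on the CPM scale, with an exact counting interval of 1.10 to 7.68 at 95%. Such intervals cover counting error only. Dsc3, a desmocollin of basal cells, had 0 counts in all 8 libraries, which allows up to 0.151 to 0.200 CPM per library. The other 6 desmosomal cadherins (Dsg1a, Dsg1b, Dsg1c, Dsg3, Dsg4 and Dsc1) gave at most 2 counts in a library, and reads of the near-identical Dsg1 copies could be split among them. All 9 cadherin genes together gave 4 to 53 counts a library, or 0.202 to 3.22 CPM.

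Perp, the membrane protein of desmosomes and p53 target, stood at 53.5 and 48.8 CPM under shControl, 52.2 and 47.8 under shNkx2-1, 89.4 and 92.1 under triple knockdown, and 3.23 and 3.73 for Tmet. The shControl and shNkx2-1 libraries overlapped, both triple knockdown libraries lay above them and both Tmet libraries far below. Trp53 itself still gave 3.46 to 6.26 CPM in the Tnonmet libraries of these Trp53-/- lines, and 8.04 and 9.83 in Tmet. It was higher in Tmet than in each other group (adjusted p = 0.00402 to 0.0327). The labels do not say which part of the gene is deleted.

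**Figure D1:**
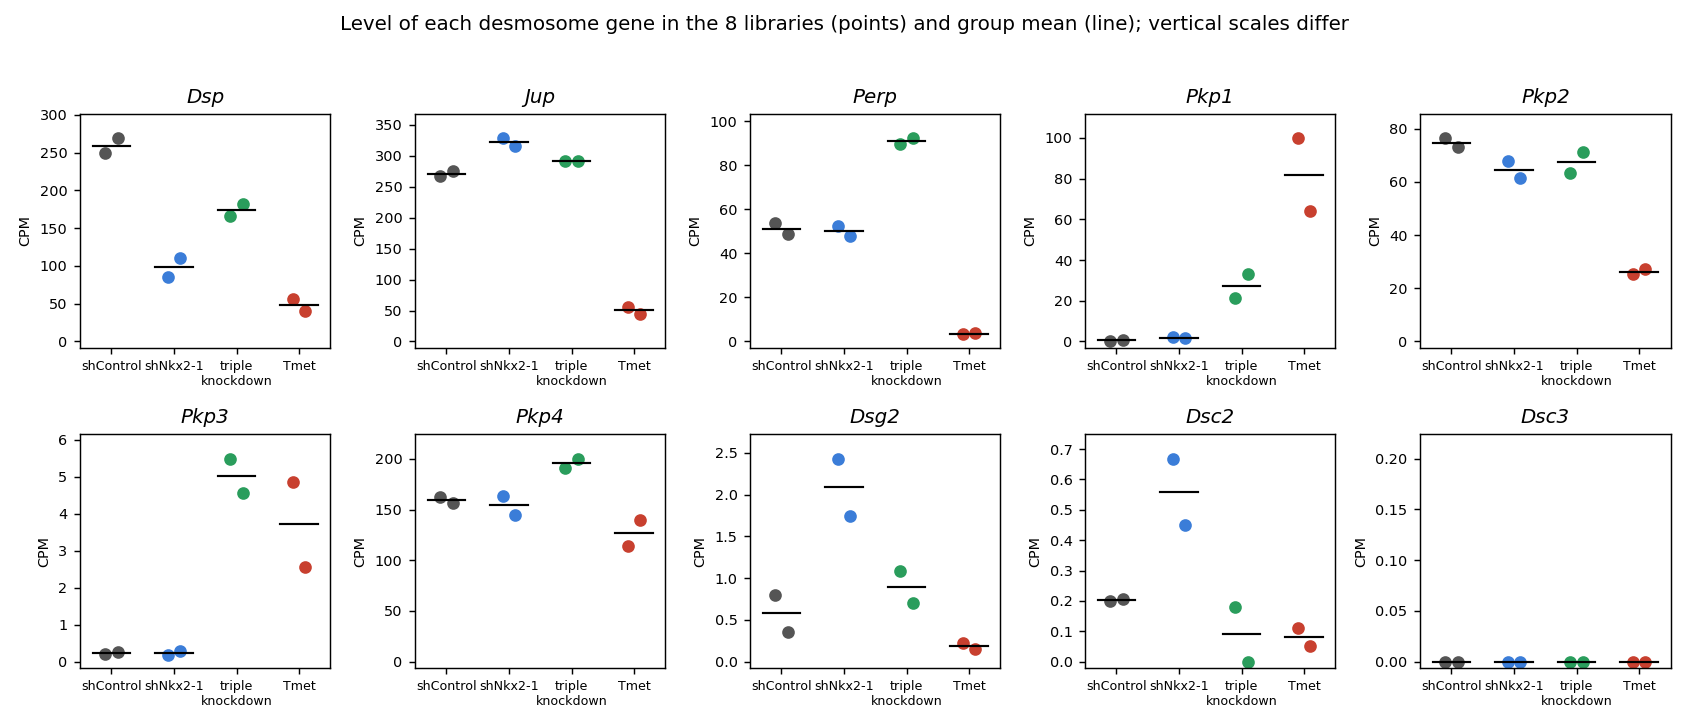
CPM of the desmosome genes in the 8 libraries (points) with the mean of each group of 2 (line), 1 panel a gene and a vertical scale of its own. Dsp is lower in shNkx2-1 and Tmet than in shControl, Pkp1 climbs from 0.520 in shControl to 81.9 in Tmet, and Perp is highest in the triple knockdown at 90.8 and lowest in Tmet at 3.48.

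Per kilobase of the longest coding transcript, Jup led the 10 genes in every Tnonmet library, with 39.0% to 52.4% of their summed level. In Tmet Pkp4 led, with 30.4% and 40.9%. Pkp1 took 26.3% and 18.5% there, close to Jup with 21.3% and 18.7%. Dsp took 13.1% and 14.1% in shControl and 4.50% to 8.10% in the other libraries. These shares come from levels scaled by length, so they carry no counting interval and the duplicates show their spread.

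The makeup of the plakophilins differed between groups. Their sum is given in CPM, not scaled by length, and the makeup per kilobase, so these are unlike measures. Summed plakophilin levels were 209 to 309 CPM over all 8 libraries, and Tmet, at 244 and 234, lay close to shControl, at 239 and 230.5. Per kilobase, Pkp1 and Pkp3 together were under 1% of the plakophilins in shControl and shNkx2-1. Pkp1 alone took 6.53% and 9.23% under triple knockdown and 37.9% and 25.3% for Tmet. Pkp2 went from 42.6% and 42.3% in shControl to 31.2% and 32.0% under triple knockdown and 15.4% and 17.1% for Tmet.

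**Figure D2:**
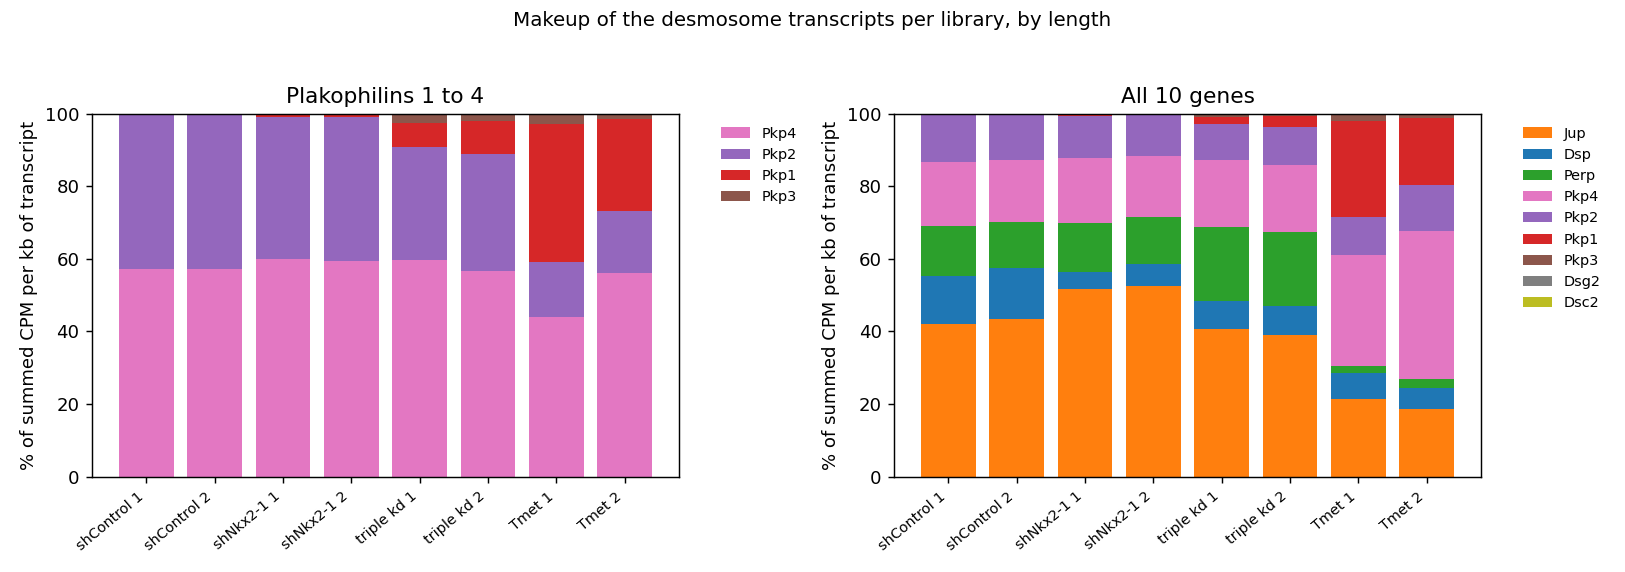
Share of each gene in the summed CPM per kilobase of transcript, for all 10 genes and for the 4 plakophilins, 1 bar a library. In Tmet, Pkp1 fills 37.9% and 25.3% of the plakophilin bar where it fills 0.0930% and 0.280% in shControl.

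With knockdown of Nkx2-1 alone, Dsp fell and no other desmosome gene passed the test. The comparisons of shNkx2-1, the triple knockdown and Tmet with shControl share its 2 libraries. Dsp fell by 1.40 on the log2 scale (SE 0.19, adjusted p = 0.0114, n = 2 libraries a group, edgeR), which is 2.64-fold in summed counts scaled by library size. Of the 8 tested genes, 0 rose and 1 fell, beside 2.17% of all tested genes that rose and 1.38% that fell. Among the genes that did not pass, 2 were higher at an unadjusted p under 0.05, Pkp1 and Dsg2. DESeq2 called 1 gene higher, Pkp1 (adjusted p = 0.00867), and limma-voom called 0.

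Dsg2 differed by 1.87 (SE 0.48, adjusted p = 0.0837) on the log2 scale and Pkp1 by 1.76 (SE 0.55, 0.137), from 19 counts each in shControl. Jup differed by 0.25 (95% interval -0.03 to 0.52, adjusted p = 0.317) and Perp by -0.03 (-0.32 to 0.25, 0.929). The median over the 8 genes was -0.01, beside 0.00 over all tested genes. The fall of Dsp lost its call when any 1 of the 4 libraries compared was left out (adjusted p = 0.0741 to 0.112), and without both Tmet libraries Pkp1 and Dsg2 were called higher (0.0464 and 0.0256).

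In the triple knockdown 3 desmosome genes rose over shControl: Pkp1, Pkp3 and Perp. Pkp1 rose by 5.61 (SE 0.45, adjusted p = 0.000176) on the log2 scale, and its summed counts, scaled by library size, were 48.7 times those of shControl (95% exact counting interval 31.0 to 81.2). Pkp3 rose by 4.39 (SE 0.49, 0.000708), or 21.6 times (10.7 to 50.9). Perp rose by 0.83 (SE 0.12, 0.00255), or 1.78 times.

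These 3 of 8 stand beside 12% of all tested genes that rose and 12.4% that fell. No desmosome gene was called lower by edgeR, with 1 at an unadjusted p under 0.05, and both DESeq2 and limma-voom called 1, which was Dsp (adjusted p = 0.0203 and 0.0416). Dsp differed by -0.58 (SE 0.18) in the edgeR fit, and without both Tmet libraries it was called lower (0.00516). Jup differed by 0.10 (95% interval -0.17 to 0.38) and Pkp2 by -0.15 (SE 0.12), neither past the test. The median over the 8 genes was 0.48, beside 0.00 over all. The heart muscle markers, a tissue that also has desmosomes, summed to 204 to 312 CPM in the triple knockdown and at most 21.7 in the other groups. Tnnt2 alone averaged 258 CPM there, while Myh7 and Actc1 were at 0. The epithelial and fibroblast marker sums given above were also higher in the triple knockdown than in shControl, with 3 of 6 tested epithelial markers that rose and 1 that fell, and 1 of 5 tested fibroblast markers that rose. The part of these markers in the result was not tested.

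Adding the Foxa2 and Cdx2 hairpins to the Nkx2-1 hairpin was compared directly, and 4 desmosome genes were higher in the triple knockdown than in shNkx2-1. They were Pkp1 at 3.85 (SE 0.38, adjusted p = 0.000512), Pkp3 at 4.39 (SE 0.49, 0.000899), Perp at 0.86 (SE 0.12, 0.00262) and Dsp at 0.83 (SE 0.18, 0.0163). The comparison shares libraries with both preceding ones, so these are the same Dsp, Pkp and Perp levels seen from another reference. The 4 of 8 stand beside 9.27% of all tested genes that rose.

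Another 11.1% of all tested genes fell, and 0 desmosome genes did in edgeR, DESeq2 or limma-voom, with Dsg2 at an unadjusted p under 0.05 (difference -1.21, SE 0.46, adjusted p = 0.105). Pkp4 differed by 0.34 (SE 0.13, 0.0947), and fits without both Tmet libraries called it higher (0.0127). The call on Dsp was lost without shNkx2-1 library 1 or without either triple knockdown library (adjusted p = 0.0698 to 0.119). The median over the 8 genes was 0.59, beside 0.00 over all.

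Tmet showed the broadest differences from shControl. Perp, Jup, Dsp and Pkp2 fell and Pkp1 and Pkp3 rose, while Pkp4 and Dsg2 did not pass the test. Perp fell by 3.87 (SE 0.15, adjusted p = 7.19e-07) on the log2 scale, 14.6-fold in scaled summed counts. Jup fell by 2.44 (SE 0.13, 3.01e-06), 5.44-fold. Dsp fell by 2.43 (SE 0.19, 2.81e-05), 5.46-fold. Pkp2 fell by 1.51 (SE 0.12, 3.42e-05).

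Pkp1 rose by 7.21 (SE 0.45, adjusted p = 8.53e-06), or 147 times in scaled summed counts (95% exact counting interval 93.9 to 244). Pkp3 rose by 3.96 (SE 0.49, 0.000308), or 15.8 times (7.79 to 37.3). The counts of 2 higher and 4 lower stand beside 29.2% and 28.1% of all tested genes, and the median over the 8 genes was -1.55 beside 0.02. Dsg2 differed by -1.58 (SE 0.63, 0.0615) and Pkp4 by -0.32 (SE 0.13, 0.0555). Leaving out shControl library 2 brought Dsg2 past the test (0.0461) and leaving out Tmet library 2 did so for Pkp4 (0.00417). The fibroblast and epithelial markers given above also differed in Tmet. Basal and squamous markers summed to 35.1 to 59.2 CPM there against at most 6.41 elsewhere. Krt6a made up most of that Tmet sum, at 32.1 and 54.8 CPM. Of the 4 tested basal and squamous markers, 3 rose and 1 fell, beside 29.2% and 28.1% of all tested genes. The one that fell was Trp63 (-4.26, adjusted p = 0.00961), on 22 against 1 counts. The part of these markers in the differences was not tested.

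Against shNkx2-1, Tmet was lower in 5 desmosome genes and higher in 2. Dsg2 fell by 3.45 (SE 0.56, adjusted p = 0.00115), from 71 to 7 counts, and Dsp fell by 1.03 (SE 0.19, 0.00204). Perp, Jup and Pkp2 fell, with differences of -3.84, -2.68 and -1.30, while Pkp1 rose by 5.44 and Pkp3 by 3.95, with adjusted p-values of 7.31e-07 to 0.000299. Over all tested genes, 29.3% rose and 28.8% fell, and the median over the 8 was -1.17 beside 0.00. With no filter on low counts, Dsc2 also came out lower (-2.73, SE 1.00, adjusted p = 0.0413 over 18547 genes), on 19 against 3 counts.

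Against the triple knockdown, Tmet was lower in 6 desmosome genes and higher in 1. Perp differed most and fell by 4.70 (SE 0.15, adjusted p = 5.47e-07), 26.0-fold in scaled summed counts. The others that fell were Jup at -2.54 (SE 0.13, 3.52e-06), Dsp at -1.86 (SE 0.19, 0.000158), Pkp2 at -1.36 (SE 0.12, 8.52e-05), Dsg2 at -2.24 (SE 0.60, 0.0159) and Pkp4 at -0.62 (SE 0.13, 0.00475). Pkp1 rose by 1.60 (SE 0.31, 0.00371), 3.02 times in scaled summed counts.

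Pkp3 differed by -0.44 (SE 0.36, 0.347), with a 95% interval of -1.26 to 0.39. Over all tested genes, 24% rose and 24.1% fell, and the median over the 8 was -1.61 beside 0.02. The call on Dsg2 was lost without triple knockdown library 1 (adjusted p = 0.101) or Tmet library 2 (0.0579), and Pkp3 was called lower without Tmet library 1 (0.0385).

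**Figure D3:**
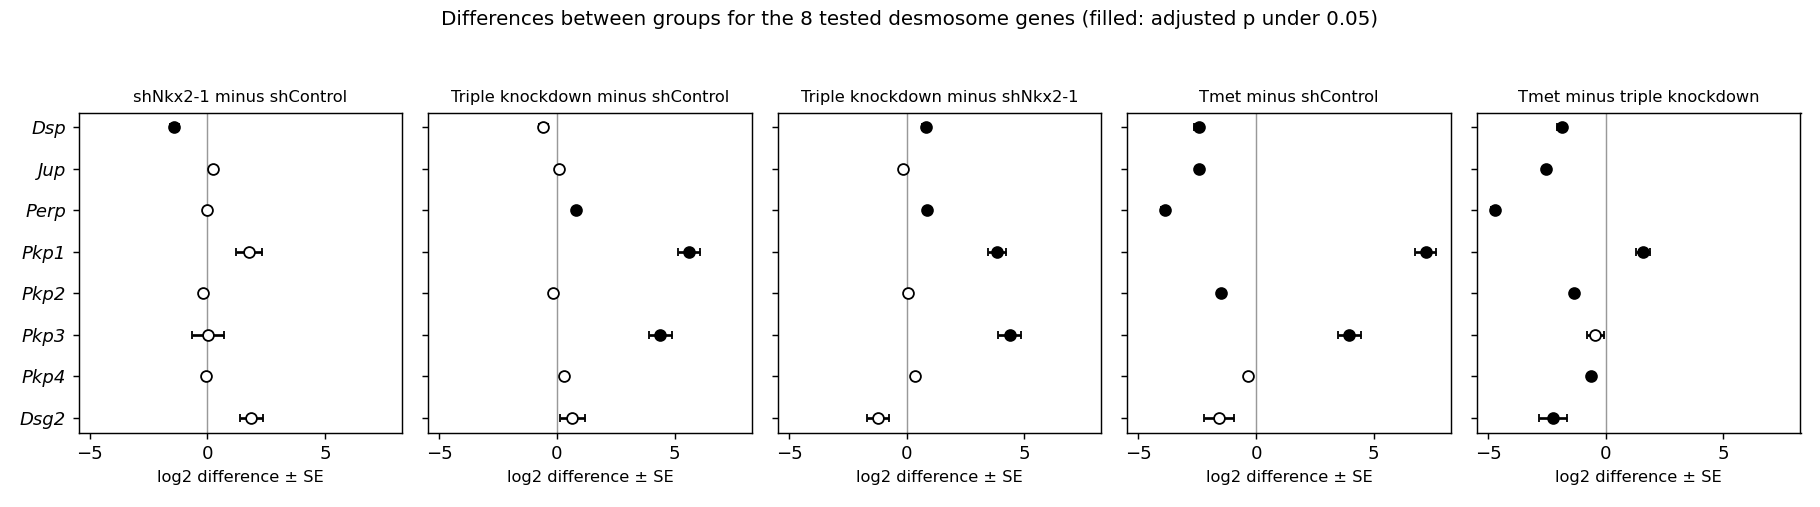
Log2 difference with its SE for the 8 tested desmosome genes, filled where the adjusted p is under 0.05. All comparisons of groups are drawn except Tmet against shNkx2-1. Perp lies to the right in the triple knockdown (0.83) and far to the left in Tmet (-3.87 against shControl), while Pkp1 lies to the right in both (5.61 and 7.21).

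Classical cadherins, which form the neighbouring adherens junction, give a scale for these levels. Per kilobase of transcript, Cdh1 (E-cadherin) stood at 154 to 227 CPM in the Tnonmet libraries and 0.716 and 0.751 in Tmet, and Cdh2 (N-cadherin) at 23.5 to 27.0 and then 58.3 and 67.3. Dsg2 on the same scale was 0.0262 to 0.422, and Dsp was 4.16 to 28.0. Of 11 tested genes of the adherens junction list, 2 rose and 2 fell under triple knockdown, and 2 rose and 4 fell for Tmet, both against shControl, beside 12% and 12.4% of all tested genes for the triple knockdown and 29.2% and 28.1% for Tmet. Cdh1 fell by 0.44 (adjusted p = 0.0347) in the triple knockdown and had a difference of -8.23 (1.11e-07) in Tmet. Ctnnb1, beta-catenin and the closest relative of plakoglobin, differed by -0.64 (0.0141) and -1.21 (0.000239), whereas Jup did not pass the test in the triple knockdown.

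**Figure D4:**
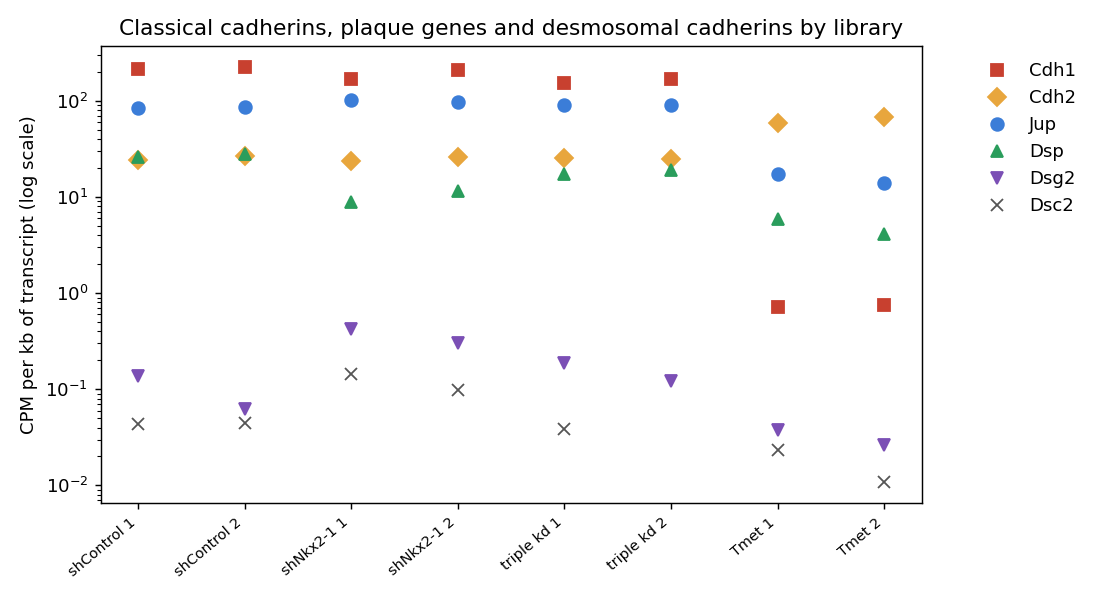
CPM per kilobase of transcript, on a log scale, of classical cadherins, plaque genes and desmosomal cadherins in the 8 libraries. A value of 0 cannot be drawn, which concerns Dsc2 in 1 triple knockdown library. Cdh1 drops from 213 and 227 in shControl to 0.716 and 0.751 in Tmet, and Dsg2 lies at 0.422 or below throughout.

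Desmoplakin binds keratins and has plakin relatives in the hemidesmosome, the junction that holds cells to the matrix beneath them. Of 10 tested plakin and hemidesmosome genes, 5 rose under triple knockdown against shControl, beside 12% of all tested genes, with a median of 1.03 beside 0.00. Tmet had 3 that rose and 6 that fell, beside 29.2% and 28.1%. Plec (plectin) rose by 1.41 (adjusted p = 0.000181) and Ppl (periplakin) by 2.20 (0.0016) in the triple knockdown, and by 1.47 and 2.24 in Tmet. Evpl (envoplakin) fell in Tmet, from 4.33 to 1.08 CPM (-2.00, 0.000649), as Dsp did, and Dst (dystonin) did not pass the test, at 493 and 513 CPM. Lamb3, a chain of laminin-332, rose by 1.52 (0.000194) in the triple knockdown and fell by 1.92 (1.37e-05) in Tmet. Of 11 tested keratins, 2 fell under shNkx2-1, 5 rose and 1 fell under triple knockdown, and 5 rose and 5 fell for Tmet. The shares over all tested genes were 1.38% lower in the first, 12% and 12.4% in the second and 29.2% and 28.1% in the last. The pair under shNkx2-1 was Krt23 (-1.86, 0.00333) and Krt20 (-4.15, 0.0181). Krt8 went from 3885 CPM in shControl to 1044 in Tmet (-1.90, 0.000251), and Krt18 rose from 1369 to 2759.6 CPM (0.0404) in the triple knockdown and did not pass in Tmet. Krt7 averaged 116 CPM under shControl, 1138 under triple knockdown and 1.13 for Tmet. Among the keratins that rose in Tmet, Krt6a went from 0.0516 CPM in shControl to 43.5 (9.38, 2.75e-05).

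The genes whose profile over the 8 libraries was most like that of Dsp were found by the root mean square difference of centred log2 CPM, over 11048 genes with at least 5 CPM in a group. They were Ptpre, a receptor tyrosine phosphatase (0.298), Tspan2, a tetraspanin (0.305), Klrg2 (0.322), Col4a1, a collagen IV chain (0.333), and 1110020G09Rik (0.360). Among the desmosome genes Pkp2 ranked 103 (0.507), Jup 889 (0.689) and Pkp4 2297 (0.807). Perp ranked 8017 (1.18), and Pkp3 and Pkp1 were farthest (2.46 and 3.61). Dsg2, below the level required for a rank, had 1.23.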

How the data were processed

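Polyadenylated RNA from 8 libraries was sequenced as single-end reads of 45 nt, per the labels' protocols. The authors deposited a table of RSEM estimated counts, of which 34.7% to 38% of a library's values are not whole. RSEM 1.2.12, Bowtie 1.0.1 and mm9 are named per the submitters' processing notes. Which annotation was counted, how reads were filtered and whether counting used strand is not stated in these sources. Each column matched 1 sample by its title, and all columns were used.

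Estimated counts were rounded. In R 4.3.3, edgeR 4.0.16 (TMM factors, 0.943 to 1.035) kept 13318 genes by filterByExpr (minimum count 10, minimum total 15) and left out 9906. A quasi-likelihood fit over all 8 libraries, with no covariate, had 4 residual and 3.94 prior degrees of freedom. The 6 contrasts were tested two-sided with Benjamini-Hochberg adjustment over all tested genes and a threshold of 0.05. The test script was tested on simulated data. Alternatives were DESeq2 1.42.0 and its size factors, limma-voom (limma 3.58.1), no filter, a replicate block, only the 2 groups compared, no Tmet libraries, and each library left out. All 10 genes were named whatever their result. From the other lists, up to 4 genes with the smallest adjusted p per contrast could be named, plus a fixed few, and the text gives a choice of them. Evpl and Dst, and the Tmet values of Snai2 and Twist2, are given outside that rule. The members, lists and rules were chosen with earlier results of these data known. Transcript lengths (the longest coding transcript of GENCODE vM21) and promoters come from another build than the counts. A further part of the genotype, the same in all 8 libraries, is not reported here.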

Additional observations from a re-analysis of the deposited data

How the results depend on the processing

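The rises of Pkp1, Pkp3 and Perp in the triple knockdown and the differences of Dsp, Jup, Perp, Pkp1 and Pkp2 between Tmet and each other group kept their calls in every alternative run. In shNkx2-1 against shControl the count of 1 desmosome gene called became 2 with DESeq2, 3 with the libraries of the 2 groups only and 3 without both Tmet libraries, and 0 to 3 with single libraries left out. In the triple knockdown against shControl the count of 3 became 5 with only the 2 groups and 5 without both Tmet libraries, and 3 to 5 with single libraries left out. The leave-one-out range was 3 to 5 for the triple knockdown against shNkx2-1, 6 to 7 for Tmet against shControl, 7 to 8 against shNkx2-1 and 6 to 8 against the triple knockdown. Sign changes touched values near 0 that were not called. Pkp3 in shNkx2-1 was -0.00086 with the replicate block and -0.0077 with limma-voom, and -0.34 to 0.27 with a library left out. Perp ranged from -0.105 to 0.0307 and Pkp4 from -0.140 to 0.0346 there, and Pkp2 from -0.0301 to 0.141 in the triple knockdown against shNkx2-1. The cause was not tested. Over all genes, 473 calls in shNkx2-1 became 294 with the replicate block, 877 with DESeq2 and 1779 with the 2 groups only, and 0 to 1998 with a library left out. The 3243 in the triple knockdown became 5607 (1248 to 5459), the 2711 against shNkx2-1 became 4518 (1024 to 4994), and the 6404 of Tmet against the triple knockdown ranged from 3962 to 7901. Same-numbered libraries deviated together in 3 of 6 pairs of groups, which were the 3 pairs among Tnonmet groups (correlation 0.117 to 0.185). The pairs with Tmet had correlations of -0.130 to -0.0365. The labels do not say that same-numbered libraries share anything, so the block is an alternative. Under it Dsg2 in Tmet against shControl passed the test (adjusted p = 0.0376) and no other desmosome call changed. Depth limits the values of Dsg2, with 7 to 71 summed counts a group, of Dsc2 and Dsc3, and of Pkp3 and Pkp1 in shControl.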

Other observations

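Of 16 tested regulators of epithelial and mesenchymal state, 3 rose under shNkx2-1 against shControl, 2 rose and 5 fell under triple knockdown, and 4 rose and 8 fell for Tmet. Over all tested genes 2.17% rose in the first comparison, 12% rose and 12.4% fell in the second, and 29.2% rose and 28.1% fell in the last. Snai2 rose from 4.41 to 9.24 CPM in shNkx2-1 (1.06, adjusted p = 0.0334) and to 15.6 in the triple knockdown (1.82, 0.000683), and stood at 5.61 in Tmet (0.35, 0.176). Grhl3, a Grainyhead factor of surface epithelium, fell from 37.0 to 0.313 CPM in the triple knockdown (-6.86, 0.000114), and Grhl2 from 5.77 to 1.31 (-2.13, 0.00298). Both also fell in Tmet against shControl, Grhl3 to 0.151 CPM (-7.82, 1.24e-05) and Grhl2 to 0.292 (-4.28, 6.15e-05). In Tmet, Twist1 stood at 43.2 CPM against 0.0850 in shControl and Zeb1 at 89.8 against 44.7 (1.00, 0.00199), while Twist2 fell from 34.1 to 21.3 (-0.68, 0.0156). Trp63, the factor of basal epithelium, averaged 0.628 CPM under shControl, 3.16 under shNkx2-1, 0.251 under triple knockdown and 0.0252 for Tmet. Of 12 tested kinases, proteases and other partners of desmosomal proteins, 3 rose and 1 fell under triple knockdown and 4 rose and 4 fell for Tmet, beside the same shares over all genes. Egfr rose from 1.18 CPM under shControl to 3.08 under triple knockdown (1.39, 0.00732) and 19.6 for Tmet (4.06, 8.18e-06). Cav1, caveolin, rose from 126 to 498 under triple knockdown (1.98, 0.000235) and 451 for Tmet (1.83, 6.76e-05).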
